A study of Mus musculus with 6 samples.

Results

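The genes described here are 42 interferon-stimulated genes, read in RNA of 6 subcutaneous mouse tumours. They were chosen by symbol from a list of genes that interferons are known to induce. The 42 symbols matched 43 of the 34745 genes in the deposited table, because the symbol Gbp6 stood on 2 entries, and all 43 had enough counts to be tested. Of these, 30 are called type I-like here, since they are classical targets of interferon alpha and beta, and 13 (12 symbols) are called gamma-like, since they are classical targets of interferon gamma. The names are labels of convenience: many members respond to both kinds of interferon. Each library is 1 tumour, 3 of mice fed high cholesterol (HCD) and 3 of mice fed a normal diet (ND), numbered 1 to 3 within a diet. All the mice were C57BL/6J, carried no stated genetic change, and received cells of the line B16F10, which derives from a melanoma of that strain, in the right flank. The labels do not say that each tumour grew in a separate animal, so the p-values below cover no more than the spread among these 6 tumours, part of which may be technical.

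Interferons are cytokines of antiviral and antitumour defence. Type I interferons, alpha and beta, bind a receptor whose signal assembles a complex holding STAT2 and IRF9 that binds a DNA motif called the interferon-stimulated response element (ISRE). Interferon gamma, made mainly by T cells and NK cells, binds a different receptor whose signal ends at a STAT dimer that binds the gamma-activated site (GAS), and it also raises the transcription factor IRF1, which reads ISRE-like motifs. In tumours, induced genes are transcribed both by cancer cells and by the leucocytes among them.

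Library totals ran from 20351637 to 26228074 counts, and the members took 0.380% of all counts. The label of the tumours was set against cell type markers: of 6 pigment cell markers, Tyr, Dct and Mlana had 0 counts in all 6 libraries, and the list summed to between 0.437 and 0.974 CPM (counts scaled to the library total), whereas 4 hepatocyte markers (Alb, Afp, Hnf4a and Ttr) summed to between 3582 and 5392 CPM. Most of the hepatocyte sum was Alb (2974 to 4366 CPM), followed by Afp (463 to 857 CPM). Hnf4a had 137 to 218 CPM and Ttr only 6.84 to 15.5 CPM. The tumours are therefore named by their label only. Levels within a gene are given in CPM scaled by TMM factors, and levels between genes in FPKM, the deposited counts scaled by gene length and library total.

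All 43 members were expressed in every library. The most abundant member was Gbp2, a guanylate-binding protein of the gamma-like class, at 182 ± 74.9 FPKM (SD over the 6 libraries). Bst2, which encodes tetherin, a membrane protein that holds budding viruses at the cell surface, followed at 116 ± 27.7 FPKM, and Iigp1, an immunity-related GTPase that attacks the vacuoles of intracellular parasites, at 116 ± 42.5 FPKM. The difference between the levels of Bst2 and Iigp1 was smaller than the spread of either. Mx2 was the least abundant member at 0.773 ± 0.185 FPKM, and all others had means between 1.67 (Dhx58) and 42.1 FPKM (Tgtp2). The 13 gamma-like entries summed to 455, 841 and 535 FPKM in HCD 1, HCD 2 and HCD 3, against 283, 523 and 633 FPKM in ND 1, ND 2 and ND 3. The 30 type I-like genes summed to 337, 458 and 346 FPKM in HCD tumours, against 231, 394 and 380 FPKM in ND tumours, in the same order of libraries. In both classes HCD 2 had the highest sum and ND 1 the lowest, and the diets overlapped.

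**Figure D1:**
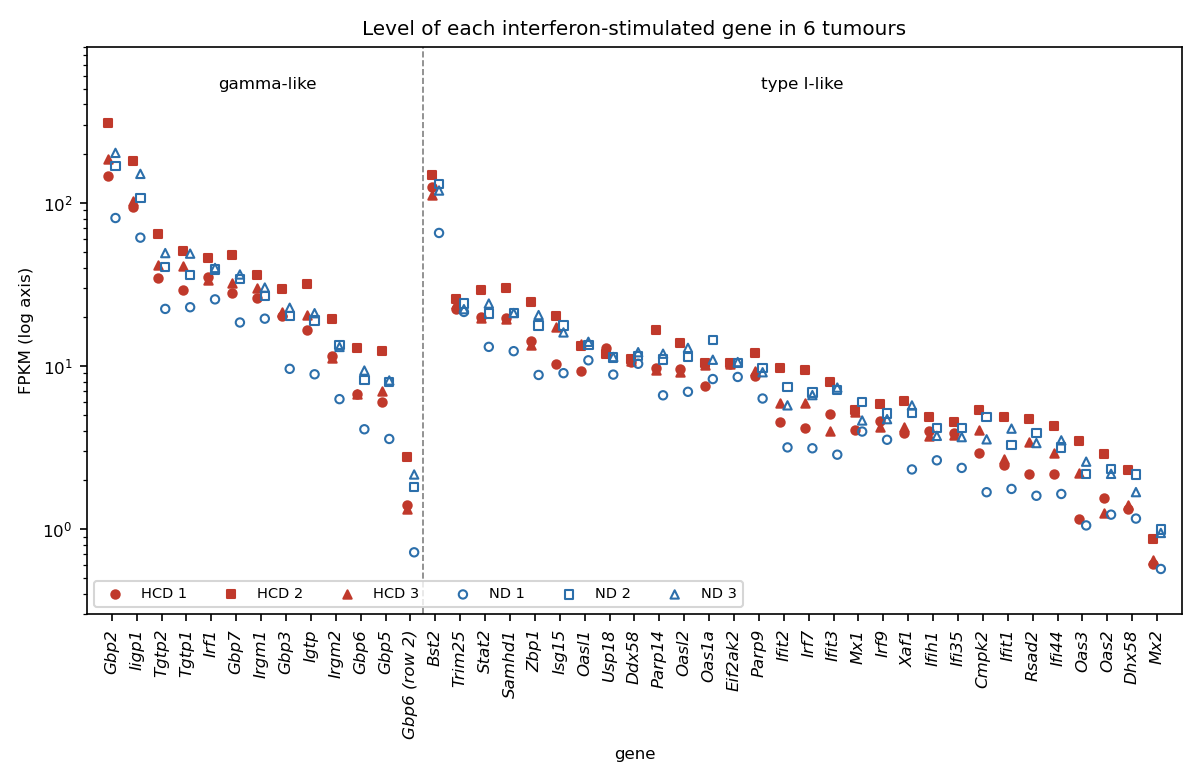
Level in FPKM (log axis) of each of the 43 entries in each library, with the gamma-like class left of the dashed line and the type I-like class right of it, and genes ordered by mean within a class. Filled red symbols are HCD tumours and open blue symbols ND tumours; the open circles of ND 1 lie lowest and the filled squares of HCD 2 highest in most columns, from Gbp2 at a mean of 182 FPKM to Mx2 at 0.773 FPKM.

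Upstream sequences are shown for some members that hold the motifs the interferon signals are known to use. Whether the motifs bear on the levels given below was not tested. RefSeq promoter windows (GRCm38.p6, 250 bases before to 50 after a gene's start) were matched for 32 of the 42 symbols. Each was searched on both strands for the core of the ISRE, which is GAAA, then any 2 bases, then GAAA (TTTC, any 2 bases and TTTC on the opposite strand), and for TTCNNNGAA, the core of the GAS, which reads the same on both strands. The ISRE core lay in the windows of 20 of 32 members (62.5%), against 3.99% of all 27025 genes of the table, and the GAS core in 13 (40.6%), against 9.55%. In the type I-like class 11 of 22 genes held an ISRE core, 6 a GAS core, 3 both and 8 neither. Of 10 gamma-like genes, 9 held an ISRE core, 7 a GAS core and 6 both. A match is a description of these letters and does not show binding. In the stretches below, written 5′ to 3′ on the strand of the gene, capitals mark either core. Igtp, Irgm2, Tgtp1 and Tgtp2, which are related genes, each carried a GAS core whose first base lay 11 bases before the first base of an ISRE core. Only 5 of 27025 genes of the table (0.0185%) held this spacing, these 4 and Gm12185, a predicted gene that shares exon bases with Tgtp1. The spacing was read from these 4 related genes before it was counted, so their place in that count was fixed in advance.
Igtp (chr11:58199491-58199551, plus strand): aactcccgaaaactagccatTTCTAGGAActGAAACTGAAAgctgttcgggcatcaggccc
Irgm2 (chr11:58214882-58214942, plus strand): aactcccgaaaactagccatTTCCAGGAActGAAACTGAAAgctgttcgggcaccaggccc
Tgtp1 (chr11:48992294-48992354, minus strand): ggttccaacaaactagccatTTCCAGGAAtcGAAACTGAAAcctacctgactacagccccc
Tgtp2 (chr11:49064253-49064313, minus strand): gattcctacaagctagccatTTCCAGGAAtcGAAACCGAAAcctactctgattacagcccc
The stretches of Igtp and Irgm2 were identical at 59 of 61 bases, and those of Tgtp1 and Tgtp2 at 47 of 61. The window of Irf1 held a GAS core and no ISRE core, those of Gbp2 and Gbp3 held ISRE cores and no GAS core, and those of Ifit1 and Isg15 held 2 and 3 ISRE cores.
Irf1 (chr11:53769904-53769952, plus strand): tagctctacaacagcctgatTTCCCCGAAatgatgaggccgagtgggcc
Gbp2 (chr3:142620584-142620633, plus strand): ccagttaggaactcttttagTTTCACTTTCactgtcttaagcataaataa
Gbp3 (chr3:142559979-142560034, plus strand): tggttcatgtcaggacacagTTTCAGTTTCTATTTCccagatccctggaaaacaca
Ifit1 (chr19:34640765-34640833, plus strand): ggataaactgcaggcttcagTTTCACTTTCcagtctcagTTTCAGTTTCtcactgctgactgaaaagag
Isg15 (chr4:156200855-156200916, minus strand): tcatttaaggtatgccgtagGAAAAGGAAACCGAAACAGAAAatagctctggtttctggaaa

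The members varied together from tumour to tumour. ND 1 was the lowest library for 38 of 43 members, where ND 1 was lowest for 22.8% of all tested genes. HCD 2 was the highest library for 36 of 43 members, against 23.0% of all tested genes. For 35 of 43 members both held, against 10.5% of tested genes, and among these were all 13 gamma-like entries and 22 of 30 type I-like genes. ND 1 and HCD 2 had been picked as the lowest ND and highest HCD tumour for immune genes of these data. Members were also chosen with earlier results known, so these counts are a description and no test. Entries that share sequence, such as Tgtp1 and Tgtp2, are not separate readings. The standard deviation of log2 CPM over the 6 libraries had a median of 0.53 over the gamma-like class and 0.39 over the type I-like class, beside 0.18 over all tested genes. The mean deviation of log2 CPM from the gene mean, called the score below, was -0.18, 0.64 and 0.03 for the gamma-like class in HCD 1, HCD 2 and HCD 3, against -0.83, 0.06 and 0.27 in ND 1, ND 2 and ND 3. The type I-like score was -0.22, 0.41 and -0.0021 in HCD tumours, against -0.56, 0.20 and 0.17 in ND tumours. The diets overlapped in both scores, since ND 2 and ND 3 lay above HCD 1 and HCD 3.

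**Figure D2:**
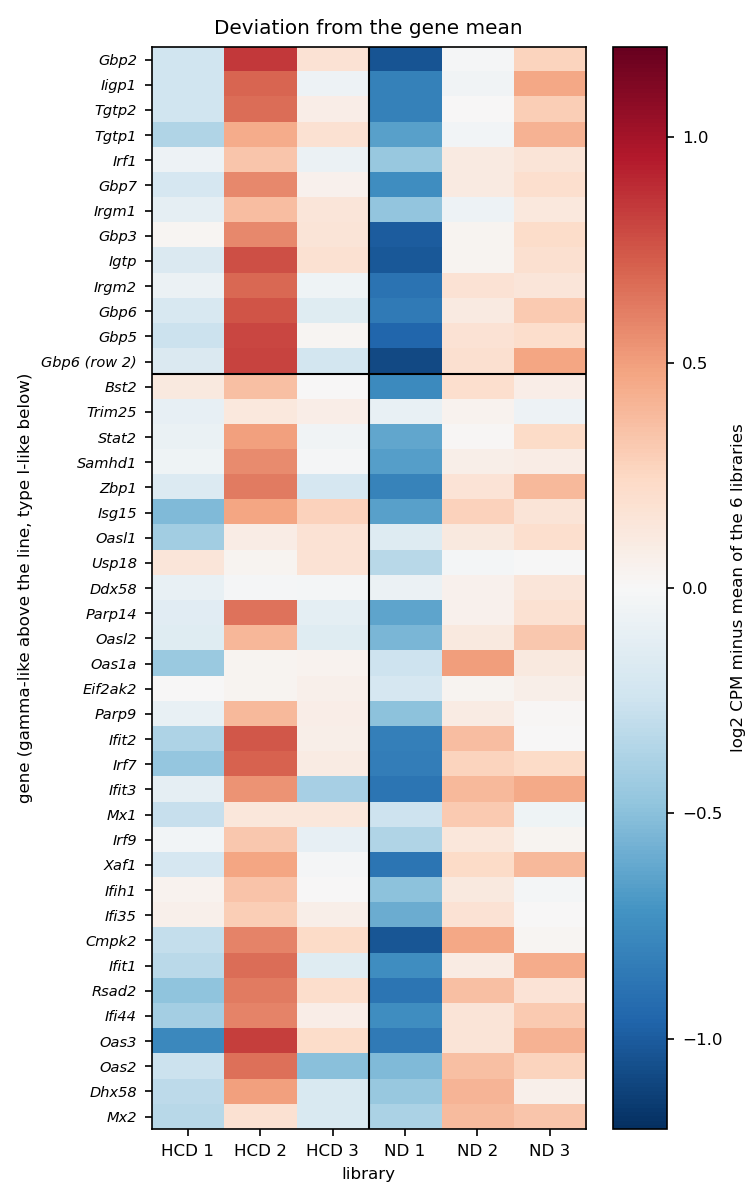
Deviation of log2 CPM from the mean of the 6 libraries for each of the 43 entries (rows, gamma-like above the line) in each library (columns, HCD left of the line). The column of HCD 2 is red and that of ND 1 blue for most members, while Ddx58, Trim25 and Eif2ak2, whose standard deviations are 0.086, 0.094 and 0.10, stay pale in all columns.

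The gamma-like class swung further than the type I-like class, which is given as a description. The difference between the scores, gamma-like minus type I-like, was 0.040, 0.23 and 0.035 in HCD 1, HCD 2 and HCD 3, against -0.26, -0.14 and 0.10 in ND 1, ND 2 and ND 3, with ND 3 above HCD 1 and HCD 3. As summed FPKM, the gamma-like class was 1.35, 1.84 and 1.55 times the type I-like class in HCD tumours, against 1.23, 1.33 and 1.67 times in ND tumours. Such sums give most weight to abundant members, with means of 182 FPKM for Gbp2 and 116 FPKM each for Iigp1 and Bst2. The steadiest members, Ddx58, Trim25, Eif2ak2 and Usp18, were type I-like. Ddx58, which encodes the RNA sensor RIG-I, had 113, 119 and 118 CPM in HCD 1 to 3, against 115, 125 and 133 CPM in ND 1 to 3, and its highest library was 1.18 times its lowest. Trim25, a ubiquitin ligase that acts on RIG-I, and Eif2ak2, which encodes the kinase PKR that halts translation on double-stranded RNA, had ratios of 1.16 and 1.21. At the other end were Oas3, a synthase of the messenger that activates RNase L, with a ratio of 3.20, the largest of the type I-like class, and Gbp5, Igtp, Gbp2 and the second Gbp6 entry (ENSMUSG00000079362) of the gamma-like class, with ratios of 3.37, 3.47, 3.69 and 3.72. These genes were picked out after their values were seen.

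Leucocyte markers moved over the same libraries. Ptprc, which encodes the pan-leucocyte protein CD45, had 136, 224 and 100.5 CPM in HCD 1 to 3, against 67.5, 142 and 133 CPM in ND 1 to 3, so HCD 2 was again highest and ND 1 lowest. The 8 T cell markers summed to between 38.8 and 83.9 CPM in HCD tumours, against 12.8 to 48.0 CPM in ND tumours. The 6 macrophage and monocyte markers summed to between 407 and 955 CPM in HCD tumours, against 295 to 605 CPM in ND tumours, and the 4 NK cell markers to between 12.5 and 21.8 CPM, against 4.47 to 13.9 CPM. None of these markers was at 0 in any library. The order was not the same throughout: HCD 1 had the second highest T cell score (0.60), while its gamma-like score was the second lowest. The 4 neutrophil markers ran otherwise, from 57.8 to 72.1 CPM in HCD tumours, against 71.0 to 134 CPM in ND tumours, with ND 1 among the high libraries. The part of leucocyte content in the levels of the members was not tested, and in bulk tissue fewer cells of a type and less RNA per cell cannot be told apart.

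**Figure D3:**
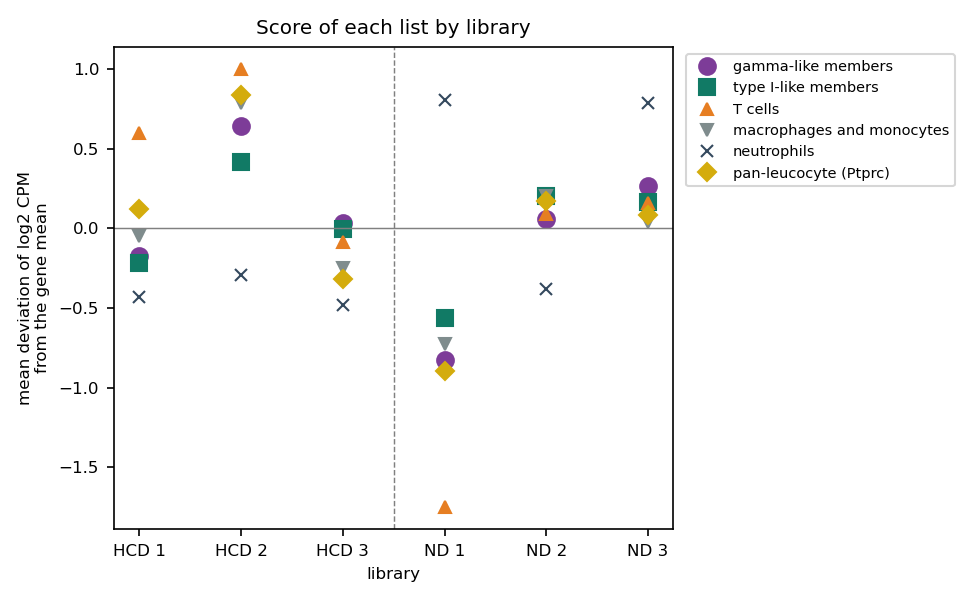
Mean deviation of log2 CPM from the gene mean (y axis) of the gamma-like and type I-like members and of 4 marker lists, by library (x axis, HCD left). HCD 2 has the highest and ND 1 the lowest point of both member classes, of Ptprc, of the T cell list and of the macrophage list, while the neutrophil crosses are highest in ND 1 and ND 3.

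The ligands were next set beside their targets. Of 10 interferon genes searched, 5 (Ifnb1, Ifna1, Ifna4, Ifna5 and Ifnl3) had no count in any library, which allows a level of up to 0.0228 CPM over the 131411022 counts (3 counts of the total, counting error only). In a single library the same rule allows 0.114 to 0.147 CPM. The handling of reads that match several genes is not given, so reads shared between related interferon genes may be missing from these counts. Ifna2 had 1 count, Ifnk and Ifnl2 2 counts each, and Ifne 22 counts over the 6 libraries. Only Ifng, the interferon gamma gene, passed the filter, with 2.84, 6.86 and 2.34 CPM in HCD 1 to 3, against 1.25, 3.06 and 4.37 CPM in ND 1 to 3. HCD 2 was its highest library and ND 1 its lowest, as for the gamma-like class, and its log2 fold change was 0.47 ± 0.56 SE (edgeR adjusted p = 0.881).

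Receptor and kinase genes had a narrow range of scores, -0.053 to 0.094 in HCD tumours, against -0.057 to 0.043 in ND tumours. None of the 9 genes of the receptors and Janus kinases, the 12 inducers and adaptors or the 6 repressors passed the test in either direction. The receptor and kinase list had a median log2 fold change of 0.030, with 6 of 9 positive, and its most abundant gene by FPKM was Jak2, a kinase of the interferon gamma receptor, with 351, 412 and 421 CPM in HCD 1 to 3, against 474, 374 and 508 CPM in ND 1 to 3. Inducers and adaptors had a median of 0.098 with 10 of 12 positive, and repressors 0.048 with 3 of 6 positive. Socs3, an inhibitor of cytokine signalling, had the lowest fold change of the repressors, -0.46 ± 0.21 SE (edgeR adjusted p = 0.839), and it was named after its value was seen.

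Between the diets, no member passed the test, and the groups overlapped for all members but Usp18. The edgeR quasi-likelihood test called 0 of 43 members, and 0.00% of the 15539 tested genes, at an adjusted p of 0.05, and the smallest adjusted p among members was 0.839. At an unadjusted p under 0.05 there were 0 members, against 5.30% of tested genes, and the DESeq2 Wald test also called 0 members, against 0.0515% of tested genes. Fold changes (log2, HCD over ND) were positive for 35 of 43 members, where 53.0% of all tested genes were positive, and all 13 gamma-like entries and 22 of 30 type I-like genes were among them. The Gbp6 entries share much of their sequence, as do Tgtp1 and Tgtp2, so the 13 are not all separate readings. The median was 0.27 over the gamma-like class (range 0.12 to 0.49), 0.15 over the type I-like class (range -0.26 to 0.32) and 0.013 over all tested genes. The 95% interval of every member included 0. All 3 HCD tumours lay above all 3 ND tumours for 1 of 43 members, Usp18, where 4.75% of tested genes did, and all 3 lay below for 0 members, against 6.36%.

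The size of these medians, and the sign of that of the type I-like class, changed when either HCD 2 or ND 1 was left out. Without HCD 2 the median was 0.026 over the gamma-like class and -0.07 over the type I-like class, with 17 of 43 members positive. Without ND 1 it was 0.060 and -0.07, with 18 of 43 positive. Without both it was -0.23 over the gamma-like class and -0.28 over the type I-like class. HCD 2 was the highest and ND 1 the lowest library for most members, so leaving out either or both lowers the difference by construction. Without HCD 1, HCD 3, ND 2 or ND 3 the gamma-like median ran from 0.38 to 0.52 and the type I-like median from 0.20 to 0.30, with 38 to 40 members positive.

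**Figure D4:**
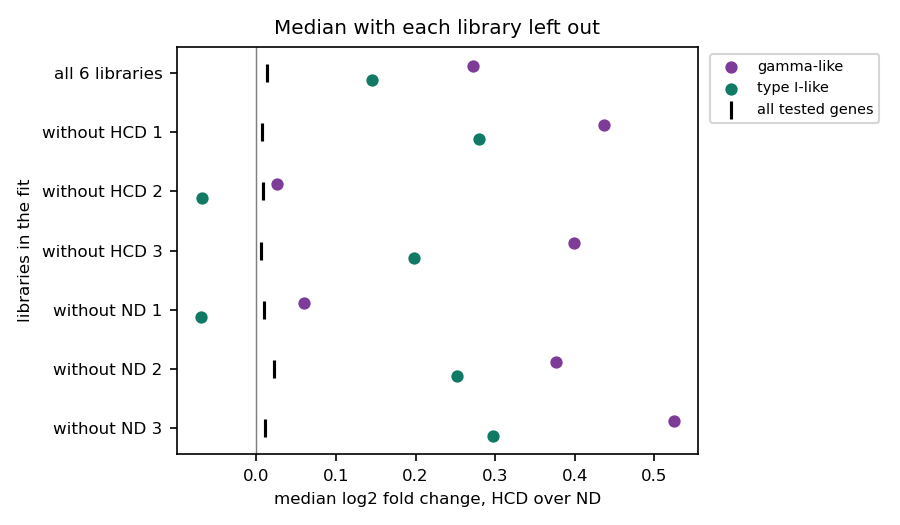
Median log2 fold change, HCD over ND (x axis), of the gamma-like and type I-like members and of all tested genes, in the fit of all 6 libraries and in fits without each library (rows). Without HCD 2 or ND 1 the type I-like median lies at -0.07 and the gamma-like median near 0, while the median of all tested genes stays between 0.0063 and 0.021.

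Transcription factors of the response come first among the roles. Irf1 (ENSMUSG00000018899, chromosome 11, 53770014 to 53778374), which encodes the factor that interferon gamma raises, had the highest FPKM of the group, 38.0 ± 6.62 FPKM in HCD tumours and 34.8 ± 7.98 FPKM in ND tumours (SD, n = 3 each). By library it had 198, 259 and 196 CPM in HCD 1 to 3, against 151, 222 and 229.9 CPM in ND 1 to 3. ND 1 was the lowest and HCD 2 the highest library, and the other 4 lay between 196 and 230 CPM with the diets mixed. The log2 fold change of Irf1 was 0.12 ± 0.18 SE (edgeR adjusted p = 0.902), and it was -0.022 without HCD 2 and -0.054 without ND 1. Stat2 (ENSMUSG00000040033, chromosome 10, 128270559 to 128292849), the signal transducer of type I interferon, had 87.1, 129.7 and 89.6 CPM in HCD 1 to 3, against 59.8, 93.0 and 108 CPM in ND 1 to 3, with a log2 fold change of 0.23 ± 0.24 SE (edgeR adjusted p = 0.869). Its lowest library was ND 1, and ND 3 lay above HCD 1 and HCD 3. Irf7, which amplifies interferon alpha transcription, and Irf9, the DNA-binding partner of STAT2, had fold changes of 0.22 and 0.12. Irf7 varied the most of the 4 factors, by a ratio of 2.90 between its highest and lowest library, against 1.61 for Irf9.

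The next group holds sensors of foreign or misplaced nucleic acid together with Trim25, the ubiquitin ligase that acts on RIG-I. Trim25 (ENSMUSG00000000275, chromosome 11, 88999376 to 89020293) had the highest level of the group (23.3 ± 1.60 FPKM, SD over 6 libraries). It had 127, 147 and 143 CPM in HCD 1 to 3, against 127, 139 and 129.6 CPM in ND 1 to 3. Its values lay within a narrow band in both diets, and the log2 fold change was 0.073 ± 0.077 SE, with a 95% interval from -0.11 to 0.26 (edgeR adjusted p = 0.869). Ifih1 (ENSMUSG00000026896, chromosome 2, 62595798 to 62646255), which encodes the sensor of long double-stranded RNA MDA5, had the smallest p of the group. It had 44.1, 54.1 and 43.1 CPM in HCD 1 to 3, against 30.5, 46.5 and 42.2 CPM in ND 1 to 3, and ND 1 stood below the other 5 libraries. Its log2 fold change was 0.25 ± 0.17 SE (edgeR adjusted p = 0.842). Zbp1, a sensor of nucleic acid in the Z form that can start cell death, was at 16.5 ± 5.56 FPKM and moved with HCD 2 and ND 1, by a ratio of 2.69. Dhx58, which encodes the third RIG-I-like receptor LGP2, was among the lowest members at 1.67 ± 0.472 FPKM, with a fold change of -0.0021.

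The ISG15 system and its neighbours had positive fold changes for 7 of 7 members, from 0.10 for Xaf1, a factor that promotes cell death, to 0.27 for Parp14, an ADP-ribosyltransferase. Isg15 (ENSMUSG00000035692, chromosome 4, 156199424 to 156200818), the ubiquitin-like modifier, had 7.57, 15.2 and 13.2 CPM in HCD 1 to 3, against 6.97, 13.3 and 12.1 CPM in ND 1 to 3. HCD 1 and ND 1 were both low, so the lowest tumours were 1 of each diet, and the log2 fold change was 0.15 ± 0.33 SE (edgeR adjusted p = 0.923), -0.047 without HCD 2 and -0.084 without ND 1. Usp18 (ENSMUSG00000030107, chromosome 6, 121245906 to 121270917), the protease that removes ISG15 and damps the type I receptor, had the smallest p of all members. It had 43.4, 40.0 and 44.2 CPM in HCD 1 to 3, against 31.1, 38.6 and 39.1 CPM in ND 1 to 3, so the 2 diets did not overlap, with HCD 2 and ND 3 less than 1 CPM apart. The log2 fold change was 0.23 ± 0.11 SE, with a 95% interval of -0.031 to 0.49 (edgeR adjusted p = 0.839, unadjusted p = 0.0755). Usp18 was also the only one of the 7 whose highest library was not HCD 2. Parp9, a partner in the same ADP-ribosylation pathway, and Ifi35 had fold changes of 0.24 and 0.25, and Ifi44 of 0.17.

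The Ifit and Mx groups were of low level. Ifit2 (ENSMUSG00000045932, chromosome 19, 34550694 to 34576419), whose human counterpart binds AU-rich RNA, was the most abundant at 6.08 ± 2.29 FPKM and had 19.3, 41.9 and 26.2 CPM in HCD 1 to 3, against 14.1, 32.3 and 25.0 CPM in ND 1 to 3. HCD 2 was highest, ND 2 second and ND 1 lowest, with a log2 fold change of 0.29 ± 0.37 SE (edgeR adjusted p = 0.887), -0.062 without HCD 2. Ifit1, which binds foreign capped RNA, and Ifit3 had fold changes of 0.12 and -0.040, and 51.2% of the 50-base words of Ifit3 transcripts also occur in its neighbour Ifit3b, so its counts are uncertain. Mx1 and Mx2 encode GTPases that trap viral nucleoproteins, and laboratory strains such as C57BL/6 carry defective alleles. Mx2 (ENSMUSG00000023341, chromosome 16, 97535308 to 97560900), annotated as a polymorphic pseudogene, had 3.04, 4.35 and 3.36 CPM in HCD 1 to 3, against 2.95, 4.99 and 4.80 CPM in ND 1 to 3. Its 2 highest libraries were ND 2 and ND 3, and the log2 fold change was -0.25 ± 0.28 SE (edgeR adjusted p = 0.874). Mx1 had a fold change of -0.011, and its highest library was ND 2.

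The Oas group, synthases of oligoadenylates and their relatives, did not follow HCD 2 and ND 1 throughout. Oasl1 (ENSMUSG00000041827, chromosome 5, 114923240 to 114937915), which restrains translation of Irf7, was the most abundant at 12.4 ± 1.87 FPKM and had 51.3, 72.9 and 77.5 CPM in HCD 1 to 3, against 61.8, 74.3 and 78.7 CPM in ND 1 to 3. Its lowest library was HCD 1, and the log2 fold change was -0.091 ± 0.17 SE (edgeR adjusted p = 0.913), 0.069 without HCD 1. Oas1a (ENSMUSG00000052776, chromosome 5, 120896256 to 120907521) had 13.9, 19.4 and 19.5 CPM in HCD 1 to 3, against 15.99, 26.9 and 20.6 CPM in ND 1 to 3, with ND 2 highest and HCD 1 lowest. It had the lowest fold change of all members, -0.26 ± 0.22 SE (edgeR adjusted p = 0.848), and 57.6% of its 50-base words also occur in Oas1g, so the share of reads between them is unknown. Oas2, Oas3 and Oasl2 each had HCD 2 as the highest and ND 1 as the lowest library, with fold changes of -0.028, 0.23 and 0.050.

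Other direct effectors had positive fold changes for 5 of 5 members. Bst2 (ENSMUSG00000046718, chromosome 8, 71534255 to 71537456) had 93.3, 111 and 86.6 CPM in HCD 1 to 3, against 50.9, 99.1 and 90.8 CPM in ND 1 to 3, and ND 1 was the library that stood apart, with the other 5 between 86.6 and 111 CPM. Its log2 fold change was 0.27 ± 0.24 SE (edgeR adjusted p = 0.854). Samhd1 (ENSMUSG00000027639, chromosome 2, 157097533 to 157135265), which degrades the deoxynucleotides that viruses need, had the smallest p of the group and the largest fold change of the type I-like class. It had 222, 341 and 227 CPM in HCD 1 to 3, against 145, 242 and 244 CPM in ND 1 to 3, with HCD 1, HCD 3, ND 2 and ND 3 close together, and the log2 fold change was 0.32 ± 0.24 SE, with a 95% interval from -0.25 to 0.90 (edgeR adjusted p = 0.842). Rsad2, which encodes viperin, and Cmpk2, a nucleotide kinase beside it on chromosome 12 that acts with it, had fold changes of 0.21 and 0.28 and ratios between highest and lowest library of 2.84 and 3.08.

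Guanylate-binding proteins, large GTPases that coat vacuoles of pathogens and promote inflammasome assembly, held the largest swings of the gamma-like class. Gbp2 (ENSMUSG00000028270, chromosome 3, 142620602 to 142638008) had 404, 859 and 536 CPM in HCD 1 to 3, against 233, 474 and 572 CPM in ND 1 to 3. HCD 2 lay above every other tumour and ND 1 below, while HCD 1 stood below ND 2 and ND 3, and the log2 fold change was 0.49 ± 0.38 SE, the largest of all members (95% interval -0.41 to 1.39, edgeR adjusted p = 0.842). Gbp3 (ENSMUSG00000028268, chromosome 3, 142560026 to 142573209), whose ISRE cores are printed above, had 120.1, 177 and 132 CPM in HCD 1 to 3, against 59.4, 121 and 138 CPM in ND 1 to 3. Apart from HCD 2 and ND 1 its values lay between 120 and 138 CPM in both diets, and its log2 fold change was 0.43 ± 0.31 SE (edgeR adjusted p = 0.842). Gbp5 and Gbp7 had fold changes of 0.36 and 0.27. The 2 entries named Gbp6 had fold changes of 0.27 (ENSMUSG00000104713, 7.995 ± 2.99 FPKM) and 0.22 (ENSMUSG00000079362, 1.70 ± 0.715 FPKM). GENCODE M21 names the second Gm43302 and draws 81.6% of its exon bases over exons of Gbp10 and Gbp6, so the division of reads between the 2 entries is uncertain.

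Immunity-related GTPases, which act on the membranes around intracellular pathogens, closed the gamma-like class. Iigp1 (ENSMUSG00000054072) had 289, 555 and 326 CPM in HCD 1 to 3, against 195, 331 and 469 CPM in ND 1 to 3. ND 3 was the second highest library, above HCD 1 and HCD 3, and the log2 fold change was 0.23 ± 0.36 SE (edgeR adjusted p = 0.899), -0.10 without HCD 2 and -0.038 without ND 1. Irgm1 (ENSMUSG00000046879, chromosome 11, 48861968 to 48871683), a regulatory member of the family, had the smallest p of the group. It had 188, 261 and 223 CPM in HCD 1 to 3, against 145, 194 and 221 CPM in ND 1 to 3, the smallest ratio of highest to lowest library among the 6, and a log2 fold change of 0.26 ± 0.18 SE (edgeR adjusted p = 0.839). The genes with the paired GAS and ISRE cores had fold changes of 0.49 (Igtp), 0.34 (Irgm2), 0.16 (Tgtp1) and 0.32 (Tgtp2). All 4 had HCD 2 as the highest and ND 1 as the lowest library. So did all 13 gamma-like entries, among them Gbp2 and Gbp3, whose windows held no GAS core. Tgtp1 and Tgtp2 are near copies: 79.4% of the 50-base words of Tgtp1 and 85.8% of those of Tgtp2 occur in the other, so their separate values are uncertain. An exon of Irgm2 overlaps Igtp over 8.01% of the exon bases of Igtp.

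**Figure D5:**
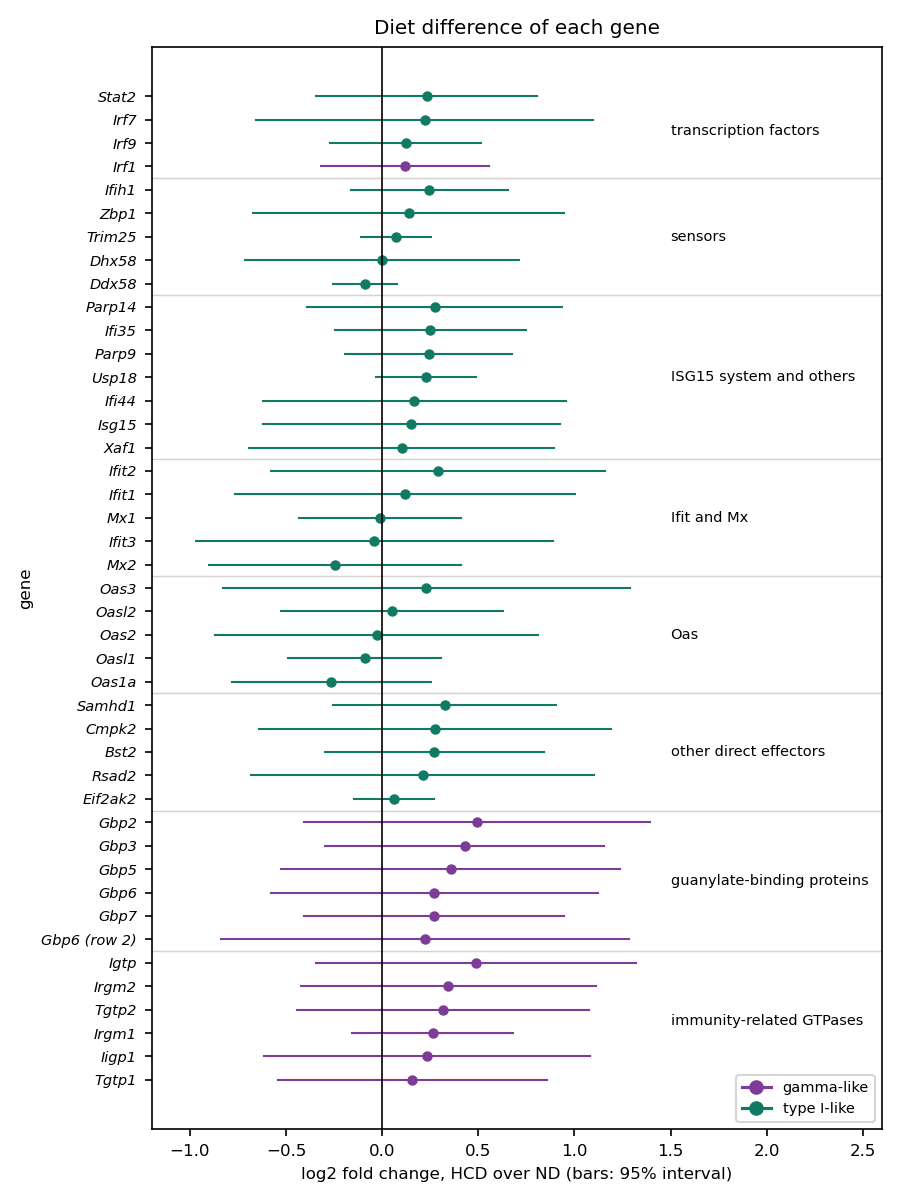
Log2 fold change, HCD over ND, of each of the 43 entries with its 95% interval (x axis), grouped by role from transcription factors at the top to immunity-related GTPases at the bottom, gamma-like genes in purple and type I-like genes in green. Every bar crosses 0, from Oas1a at -0.26 to Gbp2 at 0.49, and the narrowest belong to Ddx58 and Trim25.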

How the data were processed

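RNA of 6 tumours was sequenced as paired ends. The authors deposited read counts and FPKM values per gene and library in 1 table, per the file headers. The submitters' processing notes name mm10, CASAVA 1.8, TopHat2 2.0.9, HTSeq and edgeR. The annotation release, strand setting and handling of reads that match several genes are not given in the sources used here. No value column was left unmatched to a sample.

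Here, genes were kept by edgeR's filterByExpr (minimum count 10, total 15), which left 15539 of 34745, and scaled by TMM (factors 0.979 to 1.02). The test was edgeR 4.0.16's quasi-likelihood test of HCD over ND in R 4.3.3. Its p-values were adjusted by Benjamini-Hochberg over all tested genes, with a threshold of 0.05. It was also run on simulated data, where the changed genes had larger fold changes than any member here. That run does not cover changes of the members' size. DESeq2 1.42.0 and limma 3.58.1 gave alternatives. Intervals of 95% come from the fit. Scores use log2 CPM with a prior count of 1.

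Members and lists were chosen with earlier results of these data known. Library values with a fold change and p are given, in each of 8 role groups, for the member with the highest mean FPKM and that with the smallest p. Gene positions, exon overlap and shared 50-base words come from GENCODE M21 (GRCm38). Floors cover counting error only.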

Additional observations from a re-analysis of the deposited data

How the results depend on the processing

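No member was called under any alternative run: other size factors, filters, DESeq2's test, limma-voom, limma on log2(FPKM + 1) or log2(FPKM + 0.1), or fits without a library. Over all genes, DESeq2's Wald test called 1 higher and 7 lower, and fits without 1 library called 0 higher and 0 to 2 lower (2 without ND 2), against 0 in edgeR. With 1 library left out, the median log2 fold change ran from -0.038 to 0.34 over all members, -0.07 to 0.30 over the type I-like class and 0.026 to 0.52 over the gamma-like class. Fold changes that turned sign ran from -0.054 to 0.22 for Irf1, -0.084 to 0.40 for Isg15, -0.062 to 0.58 for Ifit2, -0.10 to 0.57 for Iigp1 and -0.21 to 0.069 for Oasl1. The cause was not tested.

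Without both ND 1 and HCD 2, the median was -0.25 over all members, -0.28 over the type I-like class and -0.23 over the gamma-like class. In that fit 2 of 43 members were positive (0 of 13 gamma-like entries), against 49.4% of 15727 genes, 11 had an unadjusted p under 0.05, against 694 of 15727 genes, and 0 were called. There the log2 fold change was -0.20 for Irf1, -0.19 for Stat2, -0.29 for Isg15, -0.34 for Ifit2, -0.078 for Bst2, -0.11 for Samhd1, -0.025 for Ifih1, -0.15 for Gbp2, -0.039 for Gbp3, -0.38 for Iigp1 and -0.014 for Irgm1. These libraries were picked as the lowest ND and highest HCD tumour for immune genes, so their removal lowers the difference by construction. Removing extreme tumours can also narrow the spread within a diet, so the count of small p-values in that fit is no test of the members.

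The labels do not say whether replicate numbers pair the tumours. Same-numbered libraries correlated at -0.32, 0.15 and 0.080 in their deviations from the diet means. These correlations cannot settle the matter, because deviations from the mean of so few libraries constrain one another. With the number as a replicate block, 0 members were called, 5 had an unadjusted p under 0.05, against 788 of 15539 genes, and the median was 0.23 over all members, 0.17 over the type I-like and 0.29 over the gamma-like class. The remaining 267 values for single members kept their direction and their side of the threshold. Medians over all members and over the type I-like class turned below 0 without HCD 2 and without ND 1, and that over the gamma-like class, among the fits run, only without both. These turns, apart from those of all members and the type I-like class without both, were smaller than the pooled SD of the score within a diet. With 3 tumours a diet, the standard errors of members reached 0.45 on the log2 scale.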

Other observations

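Other cell type markers varied between the libraries as well. The 4 B cell markers summed to 14.1, 8.84 and 1.75 CPM in HCD 1 to 3, against 1.07, 3.40 and 3.20 CPM in ND 1 to 3, so HCD 1 was highest and HCD 3 lay below ND 2 and ND 3. The 4 dendritic cell markers summed to between 19.8 and 34.2 CPM in HCD tumours, against 13.8 to 27.3 CPM in ND tumours. The 4 endothelial markers ran from 155 to 324 CPM in HCD tumours, against 143 to 177 CPM in ND tumours, with HCD 2 alone above 200 CPM. None of these lists held a gene called by edgeR at an adjusted p of 0.05.

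The markers of plasmacytoid dendritic cells, which are known as strong producers of type I interferon, were at low levels apart from Tcf4, which many cells express. Siglech averaged 1.33 CPM, Ccr9 0.914 CPM and Pacsin1 0.922 CPM over the 6 libraries. Among genes that lead to interferon production, Mb21d1, which encodes the DNA sensor cGAS, averaged 3.33 CPM, with a log2 fold change of 0.64 (edgeR adjusted p = 0.839), and Tmem173, which encodes its adaptor STING, averaged 92.2 CPM with a fold change of -0.027. These genes were picked out after their values were seen.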
